A study of Mus musculus with 86 samples.

Results

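The genes described are those for the proteins of the cytosolic ribosome, chosen as all probes whose platform gene symbol begins with Rpl or Rps and a number, without the Rps6k kinases. They are 58 genes of the 9030 gene symbols on the array, with 35 large subunit symbols (Rpl) and 23 small subunit symbols (Rps). The genes had 88 probes of 20794 in all, 36 had 1 probe only, and the probe with the most values was used for each gene. Rps19bp1, matched by its symbol, encodes a protein that binds Rps19 and is not itself a ribosomal protein, and Rpl22l1, Rpl36al, Rpl39l, Rpl7l1 and Rps27l are paralogs of other members.

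The mice were males carrying 1 targeted copy of Dll1 (+/-), in which lacZ is inserted into the gene of this Notch ligand, and RNA was taken from their liver, spleen, thymus and brain. One line was kept on C3H (15 weeks of age per the labels) and the other on 129SvJ/Iso (16 weeks), while the study's methods give only the older age. Each RNA shared a 2-colour cDNA array with RNA pooled from male wild-type mice of the same strain and organ, for which the labels list 5 mice in C3H and 4 in 129SvJ/Iso. All mice carried the allele in every cell, so the arrays compare whole organs, and fewer cells of a type cannot be told apart from less RNA per cell. The wild-type pool is 1 control sample, and the spread between wild-type mice is not in these values. In 129SvJ/Iso thymus a heterozygous pool was set against a wild-type pool on 6 technical arrays. The values are ratios, which carry no level, so the labelled organs could not be checked against markers.

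Every cytosolic ribosome is built from a small subunit, which reads the mRNA, and a large subunit, which joins the amino acids. Each subunit holds ribosomal RNA and one copy of most of its proteins, so their genes are expressed together at high levels in all cells. Many of their mRNAs begin with a C followed by a run of pyrimidines, the terminal oligopyrimidine (TOP) motif, through which growth signals set how well they are translated. The proteins also act outside translation, and Rpl5 and Rpl11 are known in mammalian cells for binding Mdm2, the inhibitor of p53, when ribosome assembly is disturbed.

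The start sites are shown because the TOP motif is the sequence feature by which many mRNAs of this class are known to be controlled. RefSeq gave a start site for 51 of the 58 genes on mouse build GRCm38.p6. Each line gives 15 bases before and 10 bases from the annotated start, 5′ to 3′ on the gene's strand, with the run of C and T that opens the transcript in capitals. Rps6, Rps27, Rps21, Rps15a, Rpl38 and Rpl35 carry the motif, and Rpl11 and Rpl37 do not at this start. In 129SvJ/Iso liver low genes were found on both sides, with Rpl11 at −1.07 and Rpl37 at −0.99, and Rps15a at −1.01 and Rps27 at −0.94.
Rps6: aagcggaagtcgggcCTCTTTTTCg
Rps27: atttccgctttcgctCCTTTCCggc
Rps21: taccgaggacccgccCTCCTgccca
Rps15a: ctctctttctgccatCTTCCCTCgc
Rpl38: agcggaagcctcgttCTTTCCCCgt
Rpl35: cggccccgccctttcCTCTTTCTCT
Rpl11: ctgacccataaggccacggggccgg
Rpl37: agtttcctgggcggaagcttatcca

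These windows lie at chr4:86857358-86857382 (Rps6, minus strand), chr3:90213639-90213663 (Rps27, minus), chr2:180257364-180257388 (Rps21, plus), chr7:118116138-118116162 (Rps15a, minus), chr11:114668565-114668589 (Rpl38, plus), chr2:39005122-39005146 (Rpl35, minus), chr4:136053384-136053408 (Rpl11, minus) and chr15:5116598-5116622 (Rpl37, plus). A start with C and a run of at least 5 bases, each C or T, was found on the gene's strand at an annotated start of 10 of the 51 genes (4 of 31 large and 6 of 20 small), or 19.6%, against 3.01% of the 27025 genes with a promoter in RefSeq. A run of at least 8 such bases within 30 bases of the start was present in 29 of the 51 (56.9%), against 25.8% of all genes. A match is a description of the letters in this window, and an annotated start can lie some bases away from the one used. In C3H liver the genes with the motif at the start had a median of −0.21 (10 genes) and those without it −0.25 (41 genes), and in 129SvJ/Iso liver the medians were −0.79 (6 genes) and −0.75 (35 genes).

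The 86 arrays hold 10 each for C3H liver, thymus and brain and 9 for C3H spleen, from 5 mice each. In 129SvJ/Iso there were 12 for liver (4 mice), 15 for spleen (5 mice), 14 for brain (4 mice) and 6 for the thymus pools. Values are log2 ratios, with heterozygous RNA over the wild-type pool, averaged over both dye orientations in a mouse, so a value below 0 means less RNA in the heterozygous mouse. Which genotype is the numerator was taken from genes that the study gives as lower, and the overall sign has no check independent of that. Ratios of opposite dye orientation in the same mouse had a median Spearman correlation over all probes of 0.12 in C3H liver, 0.06 in C3H thymus and 0.22 in 129SvJ/Iso liver. It was −0.04 in C3H spleen, 0.02 in C3H brain, 0.00 in 129SvJ/Iso spleen and −0.11 in 129SvJ/Iso brain. These correlations alone give no sign that the ratios were turned. On all 86 arrays some spots carried a constant extreme value, treated as missing. Its sign was negative with heterozygous RNA in Cy3 and positive with it in Cy5, in these 4 groups as in the others. Whether this change of sign comes from turned ratios was not tested. Because of the correlations, results of these 4 groups are also given with the sign turned on the Cy5 arrays. The share of spots with no usable value averaged 3.06% to 10.2% in the C3H groups and 21.9% to 27.0% in the 129SvJ/Iso groups. Of the 58 ribosomal probes, 26 had a value on all 86 arrays, against 769 of all 20794 probes. These 769 always-measured probes, the ribosomal ones among them, are given beside the results as a measure of how well-measured spots lay on each array.

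In C3H liver, 54 of the 58 ribosomal protein genes lay below 0 (93.1%), against 43.4% of the 20335 probes tested, and the median gene was at −0.25 while the median probe was at 0.03. The 32 large and 22 small subunit genes below 0 covered nearly all of both subunits. The spread between genes was small, with an interquartile range of 0.20, against 0.28 over all probes. No gene passed the test across all probes (limma, smallest adjusted p = 0.360), as 0% of probes did at an adjusted p under 0.05. At an unadjusted p under 0.05, 21 genes were lower, against 7.66% of all probes, and 1 was higher, against 6.11%. Below 0 in every mouse with a value were 17 genes (6.81% of all probes), and above 0 in every mouse 2 genes (9.92%).

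Rps28, a protein of the small subunit head, had −0.45, −0.04, −0.79, −0.72 and −0.55 in C3H liver of mice 1 to 5 (mean −0.51 ± 0.30, SD, adjusted p = 0.360). Every mouse was below 0, and mouse 2 was closest to it. Rpl5, which carries the 5S RNA into the large subunit together with Rpl11, had −0.51, −0.11, −0.48, −0.81 and −0.25 (mean −0.43 ± 0.27, adjusted p = 0.360). Rpl23 had even values, at −0.37, −0.21, −0.26, −0.16 and −0.25 (mean −0.25 ± 0.08). Rps27l, the paralog of Rps27, averaged −0.51 ± 0.38 and Rps27 itself −0.29 ± 0.17.

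The exceptions above 0 in C3H liver were 4 genes, Rpl30 (0.29), Rpl22 (0.15), Rps12 (0.07) and Rpl10a (0.04). Rpl22, which ribosomes can do without and which mouse T cells need in their development, had 0.43, 0.10, 0.01, 0.03 and 0.18 in mice 1 to 5, all above 0, whereas its paralog Rpl22l1 had −0.16, −0.96 and −0.99 in the 3 mice with a value. A second probe of Rpl22 lay on the other side, at −0.16 ± 0.13 and below 0 in 4 of 5 mice. Rpl22l1 was the lowest gene of all in this organ (mean −0.71 ± 0.47, n = 3).

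The mice of C3H liver differed as a whole. The median over the ribosomal protein genes was −0.26, 0.04, −0.42, −0.45 and −0.09 in mice 1 to 5 (mean −0.23 ± 0.21), so 4 of 5 mice were below 0 and mouse 2 was not. The always-measured probes were likewise lowest in mouse 4 and highest in mouse 2, at −0.19, 0.01, −0.18, −0.26 and −0.01, and their part in the result was not tested. The ribosomal median was below theirs in 4 of 5 mice. Without mouse 2 there were 33 genes lower at an unadjusted p under 0.05, where 1973 of 19921 probes were. Without mouse 1, mouse 3 or mouse 4 there were 11, 7 and 8 genes. Of all probes, 1035 of 19913, 884 of 19805 and 801 of 19964 were lower in those fits. All 7 hepatocyte markers on the array lay below 0 here as well, with a median of −0.46, and their part in the result was not tested.

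**Figure D1:**
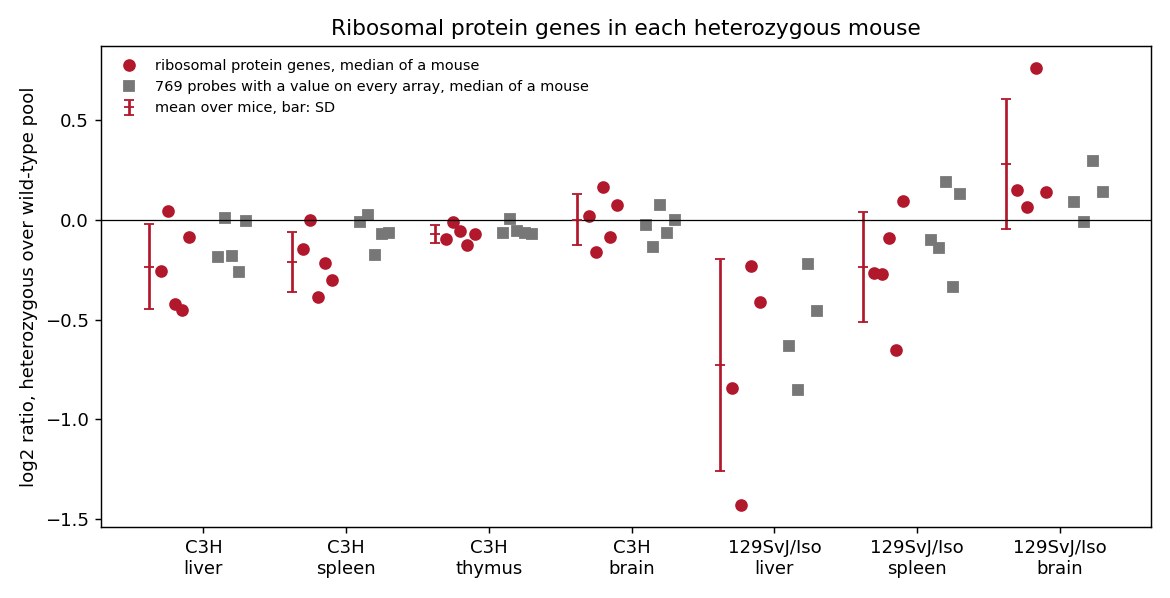
Median log2 ratio (heterozygous over wild-type pool, y axis) of the ribosomal protein genes in each mouse (red circles) and of the 769 always-measured probes (grey squares), by strain and organ, with the mean over mice and its SD as red bars. All 4 mice of 129SvJ/Iso liver lie between −1.43 and −0.23, and all 4 of 129SvJ/Iso brain between 0.07 and 0.76.

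In 129SvJ/Iso liver the ribosomal protein genes lay lower still. Of the 47 genes tested, 44 were below 0 (93.6%), against 45.4% of 13462 probes, with a median of −0.74 against 0.07 over all probes. The middle genes ran from −0.85 to −0.54, an interquartile range of 0.31 against 0.89 over all probes. No gene passed the test (smallest adjusted p = 0.346, with 0% of probes called). At an unadjusted p under 0.05, 18 genes were lower and 0 higher, against 6.25% and 7.86% of probes. Below 0 in every mouse were 26 genes (16.8% of probes), and none was above 0 in every mouse (17.6%). The 11 genes not tested had values in fewer than 3 mice, Rps6, Rps19 and Rpl38 among them. There were 8 such genes in 129SvJ/Iso spleen, 9 in 129SvJ/Iso brain, 2 in C3H spleen and 1 each in C3H thymus and C3H brain.

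Rpl11, the partner of Rpl5 in the 5S particle, had −1.57, −1.56, −0.54 and −0.59 in 129SvJ/Iso liver of mice 1, 2, 3 and 5 (mean −1.07 ± 0.58, adjusted p = 0.346). Rpl9 had −1.06, −1.99, −0.38 and −0.99 (mean −1.10 ± 0.67), and Rpl37 had −1.09, −1.60, −0.28 and −0.96 (mean −0.99 ± 0.54). In each of these genes mouse 3 was closest to 0. Rps14, a small subunit protein whose loss of one copy underlies the anaemia of the human 5q deletion, averaged −0.93 ± 0.52, and Rps26, mutated in some families with Diamond-Blackfan anaemia, averaged −0.75 ± 0.46. Rpl5, low in C3H liver, had 0.86, −0.93 and 0.32 in the 3 mice with a value (mean 0.08 ± 0.92).

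The medians over the ribosomal protein genes in 129SvJ/Iso liver were −0.84, −1.43, −0.23 and −0.41 in mice 1, 2, 3 and 5 (mean −0.73 ± 0.53), and all 12 arrays had a ribosomal median below 0. The always-measured probes were at −0.63, −0.86, −0.22 and −0.46, so the ribosomal genes lay below them by 0.57 in mouse 2 and by 0.21 in mouse 1, and within 0.05 of them in mice 3 and 5. Genes with a probe measured on every array (26) had a median of −0.75, and the other 21 of −0.62. With all arrays in the fit and the mouse as a random block, 16 genes passed an adjusted p under 0.05, all lower, against 4.90% of probes called lower in that fit. They were Rpl4, Rpl7, Rpl7a, Rpl8, Rpl9, Rpl11, Rpl13a, Rpl37, Rpl37a, Rps4x, Rps7, Rps9, Rps12, Rps14, Rps15a and Rps21. With 1 value per mouse none did. The 18 genes at an unadjusted p under 0.05 became 2 without mouse 1, 2 without mouse 2, 28 without mouse 3 and 9 without mouse 5. Of all probes, 264 of 5925, 267 of 6323, 1054 of 10901 and 499 of 7347 were lower in those fits. All 6 hepatocyte markers tested were below 0 (median −0.94), which was not tested as a part of the result.

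**Figure D2:**
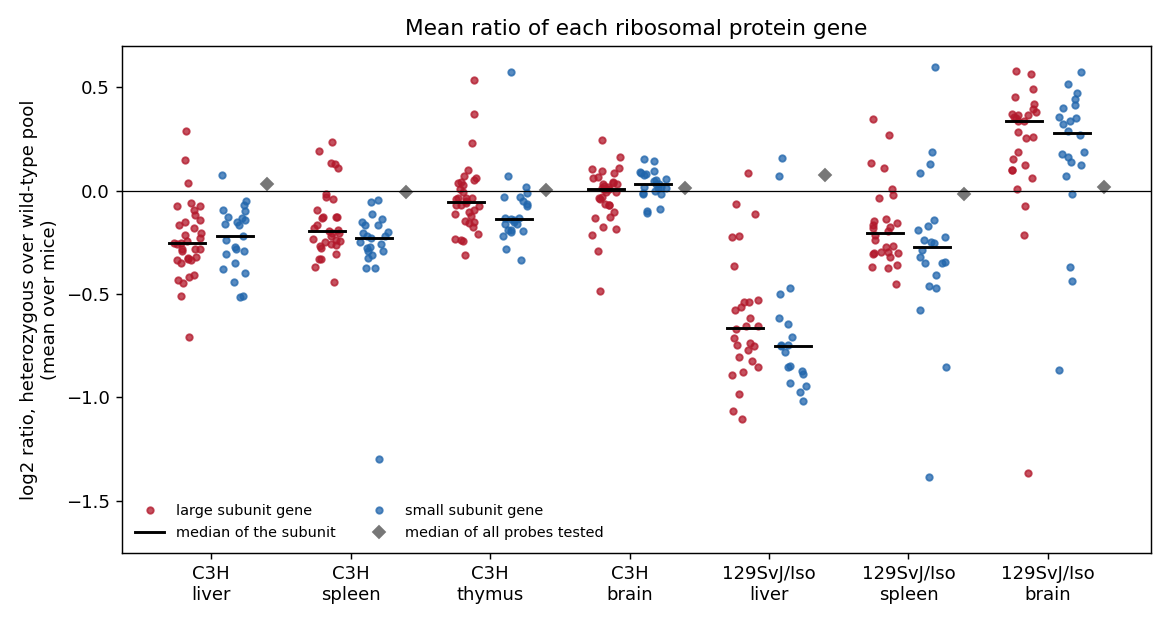
Mean log2 ratio over mice (heterozygous over wild-type pool, y axis) of each ribosomal protein gene by strain and organ, large subunit in red and small subunit in blue, with black bars at the subunit medians and grey diamonds at the median of all probes tested. The genes gather below 0 in both livers and both spleens, around 0 in C3H brain and above 0 in 129SvJ/Iso brain.

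In C3H spleen, 51 of 56 genes tested were below 0 (91.1%), against 50.8% of 18546 probes, and all 23 small subunit genes were among them. The median was −0.21, against 0.00 over all probes. At an unadjusted p under 0.05, 6 genes were lower and 0 higher (2.86% and 3.08% of probes), and none passed the adjusted test (smallest adjusted p = 0.796, 0% of probes called). Below 0 in every mouse were 19 genes (6.14% of probes), and above 0 in every mouse were Rpl23 and Rpl26 (6.12%).

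Rps28 and Rpl5 had the smallest p here as in C3H liver. Rps28 had −0.37, −0.51, −0.51, −0.13 and −0.33 in spleen of mice 1 to 5 (mean −0.37 ± 0.16, adjusted p = 0.796), and Rpl5 had −0.08, −0.20, −0.59, −0.63 and −0.35 (mean −0.37 ± 0.24). Rpl22, above 0 in every C3H liver, had −0.36, −0.03, −0.46, −0.40 and −0.41 in spleen (mean −0.33 ± 0.17). Rpl23 had the opposite order of organs, below 0 in all 5 livers and at 0.28, 0.09, 0.33, 0.00 and 0.26 in spleen. Rps19bp1, not a ribosomal protein itself, was the lowest in this organ (−1.30) with a wide spread, at −3.79, −1.27, 0.02 and −0.14 in mice 1, 2, 4 and 5.

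The low values of C3H spleen came from one dye orientation. The median gene was at −0.39 on the arrays with heterozygous RNA in Cy3 and at 0.02 on those with it in Cy5, and only 21 of 56 genes were below 0 in both. With the Cy3 arrays alone the mean of the mouse medians was −0.38, and with the Cy5 arrays alone it was 0.00, with 26 genes below 0. With the sign turned on the Cy5 arrays 47 genes were below 0 and the mean of the mouse medians was −0.20, but Rpl22 was at 0.07, and with the other orientation turned instead every sign is the opposite one. Mouse medians were −0.15, 0.00, −0.39, −0.22 and −0.30, and mouse 1 had a Cy3 array only. The 6 genes at an unadjusted p under 0.05 became 2 without mouse 1, 0 without mouse 3, 1 without mouse 4 and 0 without mouse 5. Of all probes, 414 of 16499, 393 of 17126, 450 of 17794 and 396 of 17112 were lower in those fits. Of the 4 B cell markers tested, 3 were below 0 (median −0.30). Of the T cell markers 2 of 4 were below 0 (median 0.13), and of the dividing cell markers 2 of 6 (median 0.03). The part of these cells in the result was not tested.

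**Figure D3:**
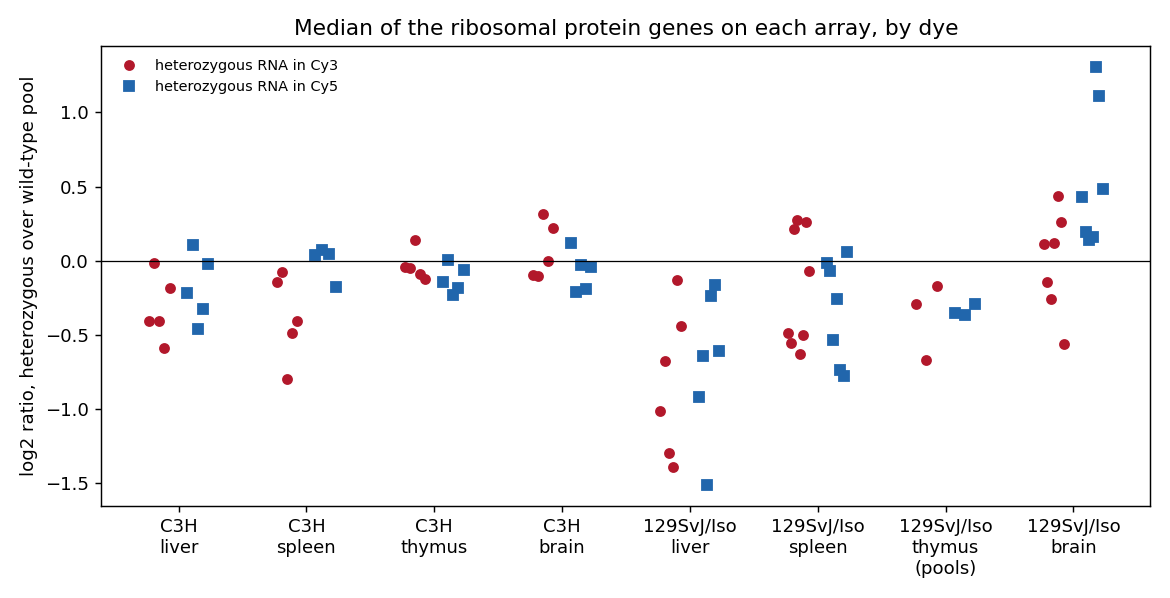
Median log2 ratio (heterozygous over wild-type, y axis) of the ribosomal protein genes on each array, with heterozygous RNA in Cy3 (red circles) or Cy5 (blue squares), by strain and organ. In C3H spleen the Cy3 arrays reach −0.80 while the Cy5 arrays lie near 0, and in 129SvJ/Iso brain the highest arrays are Cy5 arrays, up to 1.31.

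In 129SvJ/Iso spleen, 41 of 50 genes were below 0 (82.0%), against 51.3% of 15630 probes, with a median of −0.24 against −0.01. The 2 orientations had medians of −0.26 each, with 39 genes below 0 in both. With the sign turned on the Cy5 arrays 26 genes were below 0, the mean of the mouse medians was 0.00 and Rps19 was at 0.44. Only Rps19 was lower at an unadjusted p under 0.05 and none was higher (2.35% and 2.42% of probes), and none passed the adjusted test (smallest adjusted p = 0.916, 0% of probes called). Below 0 in every mouse were 5 genes (7.20% of probes) and above 0 in every mouse 0 genes (7.26%). Rps19, the gene most often mutated in Diamond-Blackfan anaemia in people, had −0.94, −2.28 and −0.94 in mice 2, 4 and 5 (mean −1.38 ± 0.77, n = 3). Rps6, the substrate of the S6 kinases, ranged from −1.69 to 0.48 in 4 mice (mean −0.85 ± 1.002), while its second probe stood at 0.98. Rps24, also a Diamond-Blackfan gene, had −0.27, −0.45, −0.21, −1.03 and −0.33, below 0 in every mouse (mean −0.46 ± 0.33). Mouse 4 had the lowest median over the ribosomal protein genes (−0.65), mouse 5 was above 0 (0.09), and the others lay at −0.27, −0.27 and −0.09. The mean of these medians was −0.24 ± 0.28, and −0.13 without mouse 4. The 4 B cell markers tested were all below 0 (median −0.54), as were 4 of 6 T cell markers (median −0.03). Of the dividing cell markers 0 of 6 were below 0 (median 0.33). The part of these cells in the result was not tested.

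In C3H thymus the ribosomal protein genes were close to 0 but mostly on one side of it. Of 57 genes, 43 were below 0 (75.4%), against 49.7% of 20003 probes, and the median was −0.07 against 0.00. The mouse medians were −0.10, −0.01, −0.06, −0.13 and −0.07 (mean −0.07 ± 0.04), and the always-measured probes were at −0.07, 0.00, −0.06, −0.07 and −0.07. At an unadjusted p under 0.05, 7 genes were lower and 1 was higher (5.31% and 2.82% of probes), with none past the adjusted test (smallest adjusted p = 0.567, 0% of probes called). Below 0 in every mouse were 13 genes (6.93% of probes) and above 0 in every mouse 2 genes (5.38%). Rps9, whose yeast counterpart bears on how accurately the small subunit reads, had −0.47, −0.29, −0.04, −0.58 and −0.31 (mean −0.34 ± 0.20, adjusted p = 0.567), and Rps20 had −0.28, −0.22, −0.56, −0.12 and −0.24 (mean −0.28 ± 0.16). Rps14 had −0.07, −0.21, −0.12, −0.33 and −0.21 and Rps24 averaged −0.20 ± 0.11, both below 0 in every mouse. The second probe of Rps24 stood at 0.07 ± 0.58. Rps19bp1 stood apart from the ribosomal proteins proper at 0.34, 0.54, 0.31 and 1.12 in 4 mice (mean 0.58 ± 0.38). Rpl9, low in 129SvJ/Iso liver, averaged 0.37 ± 1.07 here, with 2.18 in mouse 1 and the others between −0.58 and 0.34. The 7 lower genes became 3, 4, 2 and 4 without mouse 2, 3, 4 and 5. Of all probes, 1053 of 19477, 969 of 19544, 729 of 19351 and 813 of 19581 were lower in those fits. Of the T cell markers 4 of 6 were below 0 (median −0.10), and of the dividing cell markers 4 of 6 (median −0.12). All 6 neuron markers were above 0 (median 0.43), 3 of them at an unadjusted p under 0.05, against 2.82% of probes. The part of these cells in the result was not tested.

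In the 129SvJ/Iso thymus pools, which allow no test, 38 of the 50 genes on at least 4 arrays were below 0, against 40% of 16186 probes, with a median of −0.31 against 0.24 over all probes and −0.54 over the always-measured probes. Rps14 was the lowest gene and was below 0 on all 6 arrays, from −2.53 to −1.69 with a median of −2.23. Rpl13a ran from −2.06 to −1.27 and Rpl8 from −1.53 to −0.69, while Rpl12 (mean 1.56) and Rpl32 (mean 1.30) were far above 0 with a spread of several units between arrays. The 5 T cell markers on these arrays were all below 0 (median −0.69), and their part in the result was not tested.

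In C3H brain the ribosomal protein genes lay on both sides of 0, with 23 of 57 below it (40.4%), against 46.8% of 20201 probes, and a median of 0.01 that equals the median of all probes. The mice did not share a direction, with medians of 0.02, −0.16, 0.16, −0.09 and 0.07 (mean 0.00 ± 0.13). Rpl26 was the 1 gene lower at an unadjusted p under 0.05, and none was higher (5.03% and 3.73% of probes). None passed the adjusted test (smallest adjusted p = 0.565, 0% of probes called). Below 0 in every mouse were Rpl26 and Rpl11 (7.05% of probes) and above 0 in every mouse Rps27l (5.86%). Rpl26 had −0.07, −0.42, −0.10, −0.22 and −0.65 (mean −0.29 ± 0.24, adjusted p = 0.565), Rpl13 averaged −0.18 ± 0.18, and Rps27l had 0.39, 0.05, 0.20, 0.01 and 0.12 (mean 0.15 ± 0.15). Rps27l was at −0.11 on the Cy5 arrays alone. The orientations differed here too, with gene medians of 0.08 on the Cy3 arrays and −0.08 on the Cy5 arrays. With the Cy5 arrays alone 44 genes were below 0, and without mouse 2 there were 14. With the sign turned on the Cy5 arrays 13 genes were below 0, the mean of the mouse medians was 0.07 and Rpl26 was at 0.21. As deposited, all 5 neuron markers tested (median −0.14) and all 7 astrocyte markers (median −0.06) were below 0. Their part in the result was not tested.

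In 129SvJ/Iso brain most ribosomal protein genes lay above 0. Only 7 of 49 genes were below 0 (14.3%), against 47.8% of 15914 probes, and the median was 0.29 against 0.02. None of the 26 genes with an always-measured probe was below 0. Above 0 in every mouse were 22 genes (11.8% of probes) and below 0 in every mouse 1 gene, Rpl13 (8.37%). At an unadjusted p under 0.05, 1 gene was higher and 0 lower (2.47% and 2.85% of probes), and none passed the adjusted test (smallest adjusted p = 0.793, 0% of probes called).

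Rps4x, an X-linked small subunit gene, had 0.16, 0.37, 1.01 and 0.52 in 129SvJ/Iso brain of mice 2 to 5 (mean 0.52 ± 0.36, adjusted p = 0.793). Rps21 had 0.24, 0.44, 1.37 and 0.26 (mean 0.58 ± 0.54). Rpl38, which in mouse embryos is needed to translate Hox mRNAs, had −0.18, 0.88, 1.32 and 0.28 (mean 0.58 ± 0.66). Mouse 4 was the highest in all of these. Rpl13 went the other way with −2.74, −0.92 and −0.43 in 3 mice (mean −1.37 ± 1.22), and was at 0.41 with the constant extreme spot values kept.

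The mouse medians in 129SvJ/Iso brain were 0.15, 0.07, 0.76 and 0.14 (mean 0.28 ± 0.32), and 0.12 on average without mouse 4. The always-measured probes were at 0.09, −0.01, 0.29 and 0.14, and the ribosomal genes were above them by 0.47 in mouse 4 and by 0.08 or less in the others. The gene median was 0.04 on the Cy3 arrays and 0.52 on the Cy5 arrays. With the sign turned on the Cy5 arrays 39 genes were below 0 and the mean of the mouse medians was −0.24. The direction in this organ thus rests on the deposited ratios having been turned. The constant extreme value changed sign with the dye here, as in all other groups. Of the 6 neuron markers tested 4 were below 0 (median −0.24), and of the 6 astrocyte markers 5 (median −0.10). Their part in the result was not tested.

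Across the 7 tested groups, 40 genes had a value in all of them and 39 of these had a mean over the groups below 0 (median −0.18). Neither this count nor the counts of groups below 0 that follow were computed over all probes. The mean is unscaled, so 129SvJ/Iso liver, with a median of −0.74, weighs heavily on it. The groups did not share a direction, as 42 of 49 genes lay above 0 in 129SvJ/Iso brain and 34 of 57 in C3H brain. The lowest large subunit genes by this mean were Rpl4 (−0.25), a protein of the peptide exit tunnel, and Rpl37 (−0.25). Rpl4 ranged from −0.82 in 129SvJ/Iso liver to 0.12 in 129SvJ/Iso brain. Its 3 probes did not share a sign, running from −0.86 to 0.74 in 129SvJ/Iso liver and from −0.42 to 0.10 in C3H liver. The lowest small subunit genes were Rps14 (−0.30) and Rps27 (−0.26). Rps14 was at −0.44 ± 0.50, −0.33 ± 0.17, −0.19 ± 0.10 and 0.02 ± 0.31 in C3H liver, spleen, thymus and brain (n = 5 each). It stood at −0.93 ± 0.52 in liver of 129SvJ/Iso (n = 4), −0.35 ± 0.39 in its spleen (n = 5) and 0.14 ± 0.20 in its brain (n = 4), while its second probe was at −0.21 in liver and −0.52 in brain of that strain. Rpl30 was the 1 gene with a mean above 0, and it and Rpl22 were below 0 in 2 of the 7 groups only. No gene was below 0 in all 7, and 11 of the genes tested in all were below 0 in 6. These counts depend on the direction in 129SvJ/Iso brain. With its Cy5 arrays turned, all 40 means were below 0 (median −0.26), 10 genes were below 0 in all 7 groups and 18 in 6, and the lowest genes were Rpl37 (−0.35) and Rpl4 (−0.33) of the large subunit and Rps28 (−0.39) and Rps14 (−0.35) of the small one. The 2 probes of Rps28 were at −0.75 and 0.67 in 129SvJ/Iso liver. With the Cy5 arrays of C3H spleen turned, 38 means were below 0 (median −0.17) and 9 genes were below 0 in 6 groups.

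The mean differences between the large and the small subunit lay between −0.05 and 0.08 in the tested groups. The median of the large subunit genes minus that of the small subunit genes, taken in each mouse, averaged −0.01 ± 0.01 in C3H liver, 0.05 ± 0.06 in C3H spleen, 0.06 ± 0.05 in C3H thymus and −0.05 ± 0.04 in C3H brain (n = 5 each). In 129SvJ/Iso it averaged 0.01 ± 0.08 in liver (n = 4), 0.08 ± 0.10 in spleen (n = 5) and 0.02 ± 0.07 in brain (n = 4). The difference was above 0 in all 5 mice of C3H spleen (0.01 to 0.12) and in 4 of 5 of C3H thymus, and below 0 in all 5 mice of C3H liver (−0.0255 to −0.001) and C3H brain (−0.11 to −0.01). The largest single value was 0.24 in mouse 4 of 129SvJ/Iso spleen. In C3H thymus, where the median over all ribosomal protein genes was −0.07, the gene medians were −0.056 (large) and −0.135 (small). There 23 of 34 large and 20 of 23 small subunit genes were below 0. In C3H liver and C3H brain the sign was the opposite on the Cy5 arrays alone, at 0.06 and 0.03. With the sign turned on the Cy5 arrays the difference was −0.01 in C3H spleen, −0.06 in C3H brain, −0.03 in 129SvJ/Iso spleen and −0.05 in 129SvJ/Iso brain. In the thymus pools the large subunit genes had a median of −0.38 (29 genes) and the small subunit genes of −0.24 (21 genes).

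**Figure D4:**
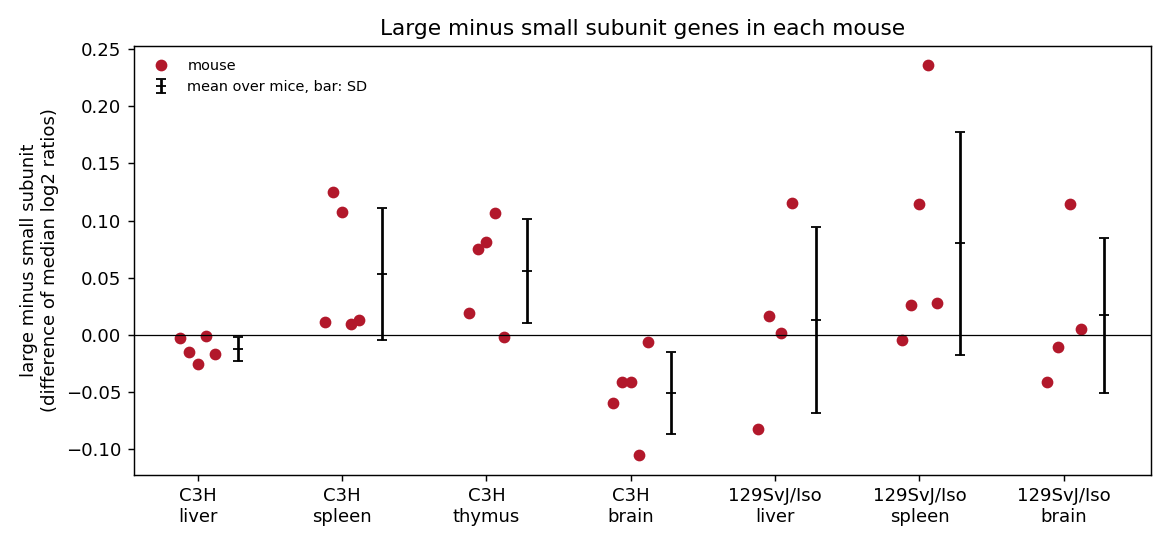
Median log2 ratio of the large subunit genes minus that of the small subunit genes (y axis) in each mouse by strain and organ, with the mean over mice and its SD as black bars. The means lie between −0.05 and 0.08.

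Whether the response to the Dll1 allele differed between the strains was tested as C3H minus 129SvJ/Iso. In liver, 40 of 47 genes had a difference above 0 and 7 below it, where 7071 of all 13201 probes were below 0. The median was 0.46, against −0.05 over all probes. The C3H median was −0.25 and the 129SvJ/Iso median −0.74. The always-measured probes also lay apart, with means of the mouse medians of −0.13 in C3H and −0.54 in 129SvJ/Iso. Their part in the strain difference was not tested. None passed the adjusted test (smallest adjusted p = 0.0828), in which 0.288% of 13201 probes were called. At an unadjusted p under 0.05, 9 genes were higher in C3H and 0 lower, against 8.08% and 11.2% of probes. Rpl22 had the smallest p, with 0.15 in C3H and −0.85 in 129SvJ/Iso (difference 1.002 ± 0.237, SE, adjusted p = 0.0828). The second probe of Rpl22 was at −0.16 in C3H liver. Rps12 stood at 0.07 in C3H and −0.75 in 129SvJ/Iso (difference 0.82 ± 0.24), and Rpl11 at −0.23 in C3H and −1.07 in 129SvJ/Iso (difference 0.84 ± 0.29). The second probe of Rps12 ran the other way, at 0.13 in C3H and 1.32 in 129SvJ/Iso (3 mice, all above 0). Without mouse 3 of 129SvJ/Iso, 20 genes reached an unadjusted p under 0.05, and Rpl22 (adjusted p = 0.0485) and Rps12 (adjusted p = 0.0448) passed the adjusted test, where 12.3% and 11.8% of 10690 probes were higher and lower in C3H at an unadjusted p under 0.05 and 2.37% passed. There were 5 genes at an unadjusted p under 0.05 without mouse 5 of C3H, 5 without mouse 1 of 129SvJ/Iso and 4 without its mouse 2. In the first of these fits 743 of 12896 probes were higher in C3H and 1149 lower. In the other fits it was 564 and 537 of 5806, and 632 and 661 of 6188.

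**Figure D5:**
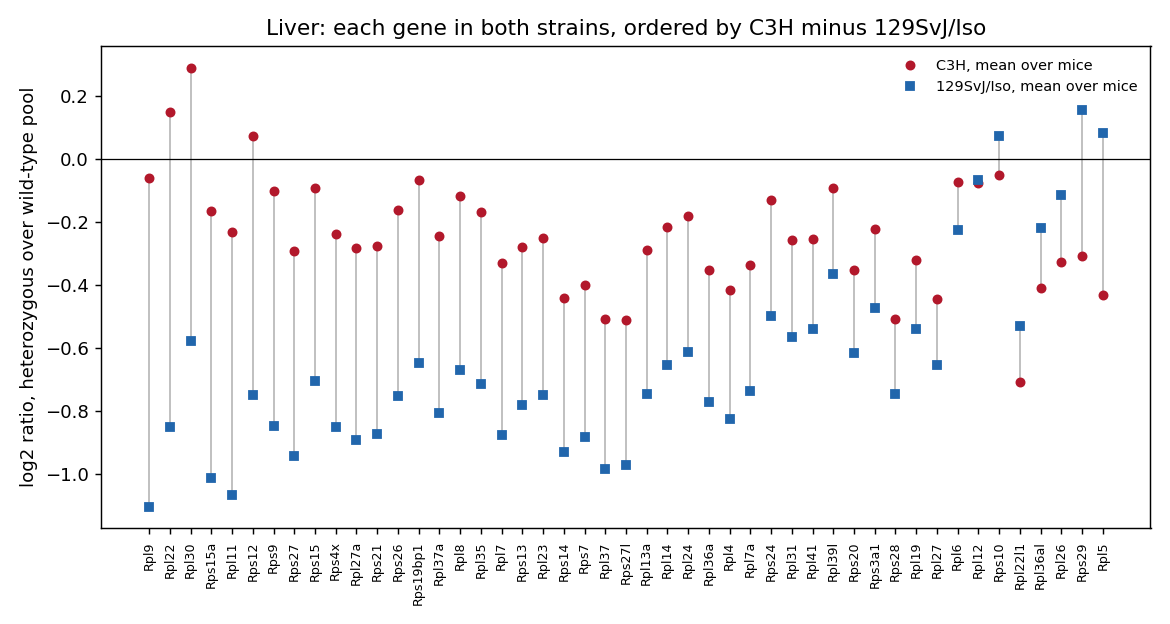
Mean log2 ratio (heterozygous over wild-type pool, y axis) in liver of C3H (red circles) and 129SvJ/Iso (blue squares) for the 47 ribosomal protein genes tested in both, ordered by C3H minus 129SvJ/Iso. The difference is above 0 in 40 genes and below 0 in 7, where 7071 of all 13201 probes tested were below 0.

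In spleen the strains lay close to each other, with medians of −0.21 in C3H and −0.25 in 129SvJ/Iso. Of 49 differences 30 were above 0 and 19 below (median 0.03), where 6859 of 14031 probes were below 0 (median 0.01). With the Cy5 arrays of C3H spleen turned 28 of 49 were above 0 and 21 below, where 6584 of 14031 probes were below. Rps19 was the 1 gene at an unadjusted p under 0.05 (difference 1.13 ± 0.39), against 3.86% of 14031 probes higher and 3.17% lower in C3H, and 0% of probes passed the adjusted test (smallest adjusted p among the genes 0.671). In brain the difference ran below 0 in 42 of 49 genes (median −0.32), against 7939 of 15487 probes (median −0.01). The gene medians were 0.02 in C3H and 0.29 in 129SvJ/Iso. For the always-measured probes the means of the mouse medians were −0.03 and 0.13, and their part was not tested. Rps4x was lower in C3H (difference −0.53 ± 0.19) and Rpl13 higher (1.19 ± 0.46) at an unadjusted p under 0.05, where 4.92% and 4.98% of 15487 probes were, and 0% passed the adjusted test (smallest adjusted p among the genes 0.416). This direction depends on that of 129SvJ/Iso brain. With its Cy5 arrays turned the difference was above 0 in 38 of 49 genes (median 0.26, 0.02 in C3H and −0.23 in 129SvJ/Iso). It was then below 0 in 11 genes and in 7901 of 15487 probes. Rps4x was at 0.22 ± 0.16, and Rps19 (−2.29 ± 0.30) passed the adjusted test (adjusted p = 0.00499), as 4.73% of probes did.

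Differences between organs within a strain were tested with the moderated F statistic. In C3H, 9 of 56 genes reached an unadjusted p under 0.05, against 11% of 18031 probes, and none passed the adjusted test (smallest adjusted p = 0.196, 0.211% of probes called). Rpl22, Rpl23, Rps28 and Rpl5 had the smallest p. Without mouse 2 the count was 23, without mouse 1 it was 4 and without mouse 3 it was 3. Of all probes, 2062 of 16613, 1546 of 15898 and 1517 of 16177 reached it in those fits. In 129SvJ/Iso, 27 of 41 genes reached an unadjusted p under 0.05, against 16.4% of 9717 probes, and again none passed (smallest adjusted p = 0.205, 0% of probes called). Rps4x was at −0.85 in liver, −0.29 in spleen and 0.52 in brain, Rps21 at −0.87, −0.35 and 0.58, and Rpl11 at −1.07, 0.35 and 0.10. The second probe of Rpl11 had −0.68 in liver, −0.32 in spleen and 0.33 in brain. With the Cy5 arrays of 129SvJ/Iso brain turned, 3 of the 41 genes reached an unadjusted p under 0.05, against 14.6% of probes, and with those of C3H spleen turned 11 of 56 did, against 11.8%. By the mouse numbers, the organs came from the same mice. With the mouse number as a replicate block 12 of the 41 genes reached an unadjusted p under 0.05 in 129SvJ/Iso, against 11% of probes (smallest adjusted p = 0.414). In C3H 6 of 56 did, against 9.82% (smallest adjusted p = 0.269). The count in 129SvJ/Iso was 17 without mouse 1, 12 without mouse 2 and 16 without mouse 4. Of all probes, 769 of 4364, 607 of 4075 and 1170 of 7554 reached an unadjusted p under 0.05 in those fits.

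Different probes of a gene did not always give the same sign. Of 22 genes with more than 1 probe tested in C3H liver, 16 had all probes on the same side of 0, with a median range of 0.18 between probes. In 129SvJ/Iso liver this was so for 9 of 16 genes, with a median range of 0.55. The 5 probes of Rps21 reached from −0.95 to 1.17 there, and the probes of Rps12 from −0.75 to 1.32. Ribosomal protein genes have many processed pseudogenes of nearly the same sequence, which a cDNA probe does not tell apart from the gene.

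Ribosomal proteins whose symbols the rule does not match were measured as well. Rplp0, a protein of the stalk that recruits elongation factors, was at −0.35 in C3H liver, −0.43 in C3H spleen, −0.14 in C3H thymus and −0.25 in C3H brain. Rplp1 was at −0.13, −0.14, −0.20 and 0.00 in the same organs, and at −0.74, −0.25 and 0.38 in liver, spleen and brain of 129SvJ/Iso. Of these genes, 4 of 4 tested were below 0 in C3H liver, 5 of 5 in C3H spleen, 3 of 4 in C3H thymus and 1 of 4 in C3H brain. The shares of all probes were 43.4%, 50.8%, 49.7% and 46.8%, and for 129SvJ/Iso they stand with each organ above. In 129SvJ/Iso it was 1 of 2 in liver, 3 of 4 in spleen, 0 of 2 in brain and 1 of 4 in the thymus pools, where Rplp0 stood at 0.75 and Rpsa at 0.40, and the median was 0.22 against −0.31 over the 50 genes above. None passed the adjusted test.

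Other translation genes with TOP mRNAs, among them elongation factors, were below 0 in 11 of 14 in C3H liver (median −0.22), 10 of 14 in C3H spleen (−0.21) and 10 of 14 in C3H thymus (−0.11). Of all probes, 43.4%, 50.8% and 49.7% were below 0 in these organs. In C3H liver 4 of them were lower at an unadjusted p under 0.05, Eef2 (−0.44), which moves the ribosome along the mRNA, and Tpt1 (−0.35) being examples. In 129SvJ/Iso liver 6 of 12 were below 0 (median −0.03), with Tpt1 at −0.996 and Eef1a1 at 0.69. The genes of ribosome assembly did not share the position of the ribosomal proteins in C3H liver, where 17 of 36 were below 0 (median 0.02), nor in C3H spleen, with 16 of 35 (median 0.01). In 129SvJ/Iso liver 19 of 27 were below 0 (median −0.39), and in 129SvJ/Iso brain 12 of 31 (median 0.05). Of all probes, 45.4% were below 0 in 129SvJ/Iso liver and 47.8% in 129SvJ/Iso brain. None of the translation or assembly genes passed an adjusted p under 0.05 in any group.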

How the data were processed

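The authors deposited 1 value per probe and array, read here as the log2 ratio of heterozygous over wild-type RNA and as already turned for the dye. The study gives log2 ratios of heterozygous against wild-type mice for its C3H genes. The sources used here do not state the normalization of the deposited values or whether they have that base and direction. The study names a GenePix scanner with its software and the TM4 suite. Array medians lay between −0.25 and 0.31, so the scale was kept. On each array 19 to 618 spots carried 1 constant extreme value (size 14.88 to 17.54), treated as missing, of which 28 fell on the ribosomal probes used. Its sign was negative on every array with heterozygous RNA in Cy3 and positive on every array with it in Cy5.

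Arrays were averaged per mouse within and then over dye orientations, and a probe lacking a value in one of a mouse's orientations was left out for that mouse. The test against 0, for probes measured in 3 mice or more, was done with limma 3.58.1 (lmFit and eBayes, two-sided) in R 4.3.3, adjusted by Benjamini-Hochberg over all probes with a threshold of 0.05. The strain difference and the moderated F over organs used the same mouse values. The routine was tested on simulated data. The mouse numbers were taken to name the same animal in each organ, and their deviations correlated between −0.14 and 0.14 across organs. The median for a pair of organs ran from −0.06 to 0.03 in the same mouse and from −0.007 to 0.011 between different mice. These values do not show the pairing. P-values measure the spread of heterozygous mice only, and the number of arrays limits the precision.

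Probes were named from the platform annotation (12771 with 1 symbol) and matched to RefSeq by gene ID (58 of 58). The genes and lists were chosen with earlier results of these data known. Named genes were the 3 with the smallest p in each group, the 2 lowest or highest of each subunit over all groups, genes of known roles (12 of them on the array) and genes in results that stood apart. Other genes were named after their values were seen, as examples or exceptions. Other gene lists used 1 probe per gene. Alternatives are given at the end.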

Additional observations from a re-analysis of the deposited data

Results flagged for a closer look

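In 129SvJ/Iso brain the ribosomal protein median of mouse 4 was 0.761, far above those of the other 3 mice, whose highest was 0.149 and lowest 0.0658. In C3H spleen Rpl22 of mouse 2 was at −0.0265, apart from the other 4 mice, which lay between −0.460 and −0.357. Such gaps were looked for in 33 sets of 4 or 5 mice and found in 2, where chance gives about 1 in 20. In 129SvJ/Iso the ribosomal protein median was below 0 in every liver (mean −0.728) and above 0 in every brain (mean 0.279). In brain the mean was −0.236 with the sign turned on the Cy5 arrays, and the liver and brain difference of the list was not tested. The large minus small subunit difference was below 0 in every C3H liver (mean −0.0123) and above 0 in every C3H spleen (mean 0.0533), while it was below 0 in every C3H brain (mean −0.0506). In C3H spleen it was −0.0123 with the sign turned on the Cy5 arrays. These differences were not tested either.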

How the results depend on the processing

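No ribosomal protein gene passed an adjusted p under 0.05 in any strain and organ under the alternatives run, except 16 in 129SvJ/Iso liver with all arrays and the mouse as a random block, Rpl11 (−1.14, adjusted p = 0.0161), Rpl9 (−1.12, adjusted p = 0.0192) and Rpl37 (−1.05, adjusted p = 0.0202) among them. In the strain difference of liver, leaving out a mouse gave 0 to 2 genes past that threshold. With the mouse number as a replicate block in the comparison of organs, 0 genes passed, as without it, and in 129SvJ/Iso the genes at an unadjusted p under 0.05 numbered 12 against 27, while over all C3H probes 3 were called against 38. Single dye orientations moved several values. In C3H spleen the mean of the mouse medians was −0.381 on the Cy3 arrays and −0.00413 on the Cy5 arrays, and in C3H thymus −0.123 on the Cy5 arrays. The large minus small subunit difference was −0.0584 (Cy3) and 0.0623 (Cy5) in C3H liver, 0.115 (Cy5) in C3H thymus, 0.032 (Cy5) in C3H brain, 0.105 (Cy3) in 129SvJ/Iso liver and −0.0579 (Cy3) in 129SvJ/Iso brain, and Rps27l in C3H brain was at −0.111 on the Cy5 arrays. With the mean over genes the difference was −0.00088 in C3H liver and 0.122 in C3H spleen, and with all probes of a gene averaged −0.0477 in C3H liver. With the sign turned on the Cy5 arrays, Rpl22 in C3H spleen was at 0.0707 and the subunit difference there at −0.0123. In 129SvJ/Iso brain the mean of the mouse medians then was −0.236, the subunit difference −0.0531, Rps4x −0.231, Rpl13 1.24 and Rps21 −0.290, while Rpl13 was at 0.408 with constant extreme values kept. Turning these arrays was also tried in other comparisons after the data were seen. Rpl26 in C3H brain was then at 0.210, Rps19 in 129SvJ/Iso spleen at 0.438, the subunit difference in 129SvJ/Iso spleen at −0.0251, and 1 gene passed the adjusted threshold in the strain difference of brain. The cause was not tested. The counts at an unadjusted p under 0.05 moved most. In C3H liver 21 lower genes became 8 with the Cy5 arrays alone and 33 with the random block. Of all probes, 1295 of 20682 and 1834 of 20335 were lower there. In 129SvJ/Iso liver 18 became 7 (Cy3 alone), 9 (Cy5 alone), 6 (plain mean of arrays), 11 (mean over probes) and 36 (random block). In the same order, 402 of 17664, 577 of 17575, 496 of 20496, 664 of 11894 and 1728 of 13462 of all features were lower. Leaving out a mouse, the mean of the mouse medians ran from −0.304 to −0.181 in C3H liver, −0.264 to −0.166 in C3H spleen, −0.895 to −0.495 in 129SvJ/Iso liver, −0.320 to −0.134 in 129SvJ/Iso spleen and 0.119 to 0.351 in 129SvJ/Iso brain. The alternatives gave 317 values of the medians, subunit differences and counts past the adjusted threshold. Of these, 298 stayed within the spread between mice or within 1.5 times the count, and the others did not. Values of both kinds changed sign. Among them were the mean of the mouse medians in 129SvJ/Iso brain and the subunit difference in C3H liver, C3H spleen and C3H brain. Depth and spot brightness were not used here, and the 4 or 5 mice per group limit what can be told apart.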
